A study of Mus musculus with 9 samples.

Results

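The genes described here are 40 lysosomal genes, named as a list of symbols and found among the 53465 genes of a mouse count table. They comprise 6 membrane and sterol transport genes, 11 glycan hydrolases, 5 sphingolipid hydrolases or activators, 2 proteases, 2 transcription factors and 14 subunits of the proton pump, of which 7 belong to its membrane sector or accessories and 7 to its cytosolic sector. Cathepsins were left out of the list on purpose. All 40 symbols matched a gene, and all 40 passed the filter on low counts, with between 56 counts (Gla) and 113608 counts (Psap) in a library.

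The table holds bulk RNA sequencing of 9 macrophage samples, 3 in each of 3 groups. Lining macrophages (libraries A, B and C) and interstitial macrophages (D, E and F) were sorted from the synovium of hind paws of healthy Cx3cr1-GFP mice, in which green fluorescent protein (GFP) reports the fractalkine receptor gene Cx3cr1. The gate was CD45+CD11b+F4/80+ in either case, and GFP separated lining (GFP+) from interstitial (GFP-) cells, so Cx3cr1 itself was part of the sort. Bone marrow-derived macrophages (BMDM, libraries G, H and I) came from C57BL/6 marrow cultured for 5 days with macrophage colony-stimulating factor, and the labels give them no GFP allele. Against BMDM, strain, tissue, sorting and culture all differ together and cannot be told apart. Age and sex are not given in the sources used here. The sources do not state whether libraries of a group are separate animals or pools, so p-values measure the spread between these libraries only. All joint libraries but interstitial D held transcripts of both sexes, as given below.

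Lysosomes break down material that macrophages take up. Soluble hydrolases cut glycans, lipids and proteins in their lumen, and several need activator proteins to reach lipid substrates. The vacuolar ATPase (V-ATPase) pumps protons into the lumen: its V0 sector sits in the membrane and its V1 sector, which hydrolyses ATP, lies on the cytosolic side and detaches and reattaches. TFEB and TFE3 are transcription factors that activate many lysosomal genes through an E-box-like element in their promoters. In the joint, synovial macrophages clear debris and matrix fragments, including glycosaminoglycans, which are sugar chains of cartilage and synovium.

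Promoters were read because that element is a shared letter pattern. RefSeq windows (GRCm38.p6) reaching from 250 bases before to 50 bases after the start were on hand for 35 of the 40 members, and not for Npc1, Asah1, Atp6v1b2, Atp6v1c1 and Atp6v1h. The letters TCACGTG, read on either strand, were found in the windows of 11 of these 35 genes (31.4%), which is 26.2% of the members' 42 windows, against 3.77% of all 32851 windows and 5.92% of windows of the genes tested here. The shorter CACGTG, contained in every such match, was found in the same number, 11 genes and 26.2% of the members' windows. It was in 7.15% of all windows and 9.98% of windows of the genes tested. The palindrome TCACGTGA, which contains both, was found in 5 members, or 11.9% of the members' windows. It was in 0.974% of all windows and 1.85% of windows of the genes tested. The stretches below show the matched positions of 4 genes called lower in both joint groups than in BMDM (Gla, Glb1, Gaa and Atp6v1a). They also show Atp6v0b, called lower in interstitial cells only, and Lamp1, called in neither joint group. Each is printed 5′ to 3′ on the gene's strand, with capitals marking the match and up to 20 bases on either side.
Gla, chrX:134601173-134601253, minus strand: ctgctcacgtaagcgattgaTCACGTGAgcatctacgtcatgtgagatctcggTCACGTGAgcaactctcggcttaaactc
Glb1, chr9:114401009-114401055, plus strand: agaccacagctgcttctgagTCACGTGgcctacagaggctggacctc
Gaa, chr11:119267802-119267848, plus strand: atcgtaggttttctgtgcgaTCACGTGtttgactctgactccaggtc
Atp6v1a, chr16:44139364-44139411, minus strand: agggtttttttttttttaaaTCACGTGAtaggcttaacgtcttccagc
Atp6v0b, chr4:117887330-117887386, minus strand: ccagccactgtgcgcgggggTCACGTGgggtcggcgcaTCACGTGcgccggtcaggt
Lamp1, chr8:13159079-13159160, plus strand: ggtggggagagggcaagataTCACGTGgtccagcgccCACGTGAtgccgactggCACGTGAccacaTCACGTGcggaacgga
The first capital of each match lies 228 and 195 bases before the RefSeq start in Gla, 49 in Glb1, 141 in Gaa, 132 in Atp6v1a, 37 and 19 in Atp6v0b, and 62, 45, 28 and 16 in Lamp1. The Atp6v1a stretch lies in an intron of longer Ensembl transcripts. The remaining members with a match were Arsa, Atp6v0d1, Atp6v0e, Lgmn and Mcoln1. The Lgmn match lies in a window inside the gene, and the window at its 5′ end held none. Against BMDM, Atp6v0e was called lower and Lgmn and Mcoln1 higher in both joint groups, and Arsa and Atp6v0d1 were not called. Of the members called higher in lining than in interstitial macrophages, 6 had a window and 0 held these letters, which says nothing about binding of a factor there. By call against BMDM, 5 of 8 lining-lower and 2 of 12 lining-higher members with a window held them, as did 6 of 13 interstitial-lower and 2 of 10 interstitial-higher members. These counts describe letters only and were not tested. Of all tested genes with a window, 7.06% held these letters, and shares by call over all genes were not read. The printed genes were picked by hand, and none of them was called higher against BMDM.

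Library totals ranged from 2194920 to 11137451 counts in the sorted groups and from 19427273 to 22499823 in BMDM, so counting error is smaller in BMDM. Over the 40 members, the highest library of a group was a median of 1.23 times the lowest in lining, 1.33 times in interstitial and 1.06 times in BMDM. The part of depth in this spread was not tested. The sort marker Cx3cr1 was read at 663 to 775 CPM in lining, 2.66 to 7.86 in interstitial and 236 to 311 in BMDM (CPM, counts per 1000000 counts of the library, scaled by the trimmed mean of M values), and the macrophage receptor gene Csf1r was high in every library, at 2461 CPM or more. Summed fibroblast markers lay at 171 to 304 CPM in lining, 191 to 693 in interstitial and 2.08 to 2.88 in BMDM, and 8 of 8 were called higher in each joint group than in BMDM. Dendritic cell markers summed to 19.4 to 59.3, 106 to 250 and 4.45 to 6.66 CPM in the same order, neutrophil markers to 0 to 6.39, 0 to 82.4 and 35.4 to 43.7, and osteoclast markers to 129 to 275, 258 to 532 and 46.6 to 53.1. Of 5 dendritic cell markers tested, 4 were called higher in lining and 5 in interstitial cells than in BMDM, and of 6 osteoclast markers tested, 3 were called higher in each. The marker calls stand against 23.1% of all genes tested called higher in lining and 23.4% in interstitial cells. Erythroid markers summed to 16.3 to 151, 12.1 to 422 and 0.795 to 4.66 CPM in lining, interstitial and BMDM libraries. T cell markers summed to 20.6 to 51.9, 25.1 to 45.2 and 1.80 to 2.33 CPM. Of 4 mast cell markers tested, 4 were called higher in each joint group, at sums of 22.3 CPM or less. Endothelial markers summed highest in BMDM, at 46.8 to 52.2 CPM. Within these lists the single markers Clec9a (dendritic cells), Ly6g (neutrophils) and Oscar and Calcr (osteoclasts) had at most 2 counts in any joint library. Such low counts do not show that these cells were absent. Other dendritic cell and osteoclast markers were called higher in joint cells, as given. The part of these other cells in the member values was not tested, and in bulk RNA fewer cells of a type and less RNA per cell cannot be told apart.

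Taken as a whole, the 40 genes made up 2.58% ± 0.23 of all counts in lining, 1.93% ± 0.15 in interstitial and 2.05% ± 0.015 in BMDM (SD, n = 3 libraries each). Lining libraries lay at 2.35% to 2.81%, above the 1.80% to 2.10% of the interstitial and the 2.03% to 2.06% of the BMDM libraries. This share weighs abundant genes most and does not stand for each member. Mean CPM in lining and interstitial was 5715 and 3824 for Psap, and 3377 and 2247 for Lgmn. It was 2175 and 1086 for Man2b1, and 1558 and 276 for Arsb. The summed CPM of 10 macrophage identity genes, among them the sort gene Cx3cr1, was also highest in lining, at 24416 to 31161 against 13480 to 23148 in interstitial and 15069 to 19077 in BMDM libraries. Mitochondrial transcripts summed to 9636 to 13901, 12182 to 18231 and 4563 to 5572 CPM in that order, and the part of either in the members' share was not tested. The makeup differed too, with V-ATPase subunits giving 11.5% ± 0.99 of the members' summed CPM in lining libraries, 14.9% ± 1.3 in interstitial libraries and 20.5% ± 0.28 in BMDM (SD, n = 3). The V-ATPase sums themselves were 2965 to 3189 CPM in lining, 2791 to 2955 in interstitial and 4041 to 4089 in BMDM. The lower share in lining than in interstitial thus did not come from a lower V-ATPase sum. By mean CPM the highest group was lining for 18 members, BMDM for 18 and interstitial for 4, as a description without a test.

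**Figure D1:**
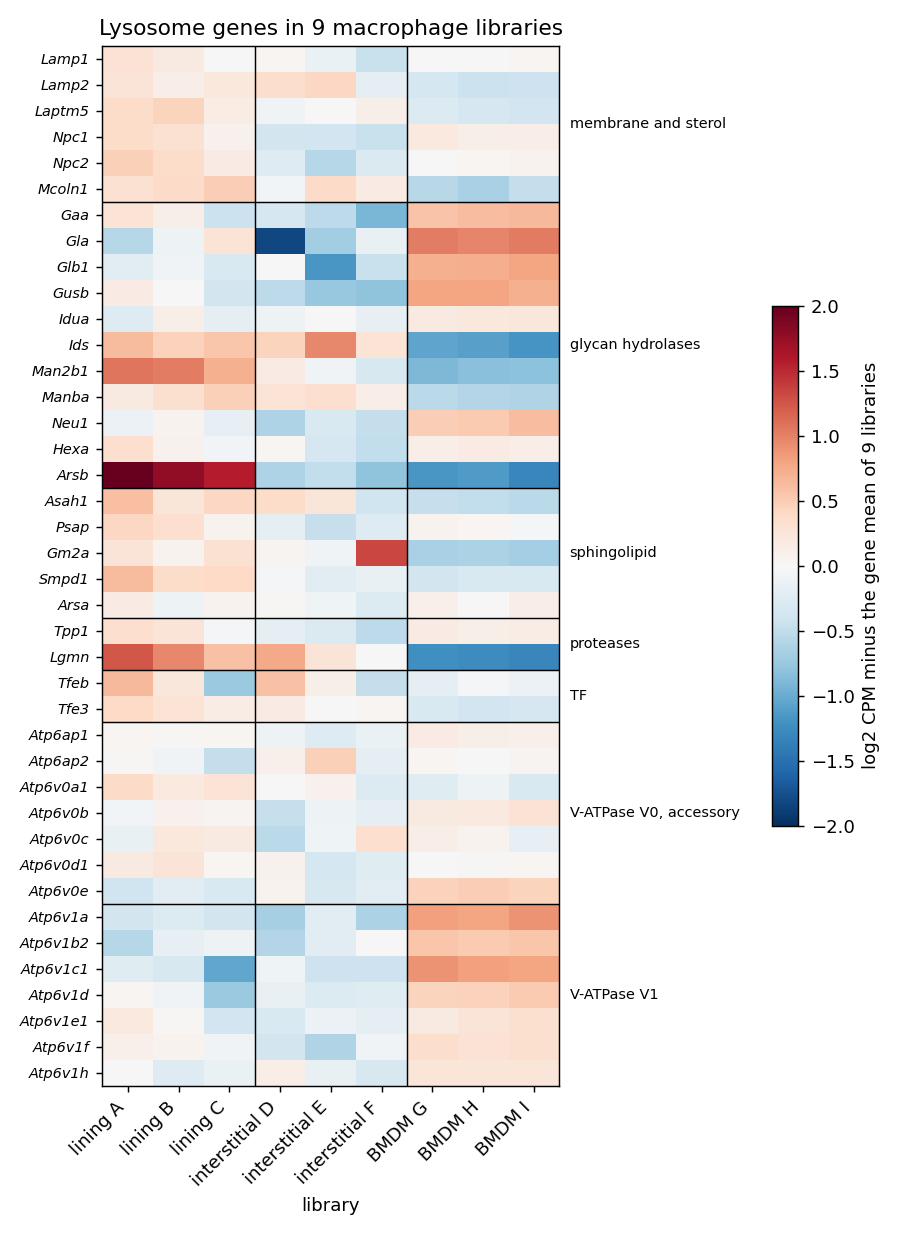
Heat map of the 40 members (rows, grouped by role) in the 9 libraries (columns), where colour is log2 CPM minus the gene's mean over the 9 libraries, from blue (low) to red (high). Arsb and Man2b1 stand out in the 3 lining libraries, Lgmn and Ids are high in most joint libraries, and the V1 subunits other than Atp6v1e1 are highest in the 3 BMDM libraries.

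Levels of different genes were compared per kilobase of exon (CPM/kb). Psap, the precursor of the saposins that help sphingolipid hydrolases, was the most abundant member in each group, at 2083 ± 253 CPM/kb in lining, 1394 ± 140 in interstitial and 1746 ± 49.5 in BMDM (SD, n = 3). Lgmn, the asparaginyl endopeptidase legumain, was in position 2 in lining (1454 ± 330 CPM/kb) and interstitial cells (967 ± 268) and in position 5 in BMDM (312 ± 9.89). Its spread in the joint groups was wide. Arsb moved from position 28 in BMDM (30.9 ± 1.86 CPM/kb) and 20 in interstitial cells (45.7 ± 4.99) to 7 in lining (258 ± 56.9), beside Man2b1 in position 6 (271 ± 35.5), from which it did not differ beyond the spread. At the other end, Tfeb was the least abundant member in each group, at 7.63 ± 3.35, 7.55 ± 2.71 and 6.32 ± 0.32 CPM/kb.

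Lining was first compared with interstitial macrophages, the 2 sorted populations of the joint. Of the 40 members, 7 were called higher in lining and 0 lower (adjusted p under 0.05 over 12610 genes, edgeR's quasi-likelihood test), against 3.74% of all genes tested called higher and 2.05% called lower. For 13 members all lining libraries lay above all interstitial libraries and for 0 all lay below, against 9.92% and 8.66% of all genes. The median log2 fold change of the members was 0.28, with 31 of 40 above zero, against -0.01 for all genes tested. No member was lower at an unadjusted p under 0.05, and DESeq2 and limma-voom also called 0 lower. The 7 were Arsb, Man2b1, Npc2, Npc1, Gusb, Smpd1 and Psap, so 3 of 11 glycan hydrolases, 2 of 6 membrane and sterol transport genes, 2 of 5 sphingolipid genes and 0 of 14 V-ATPase subunits were called.

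The difference was widest for Arsb (ENSMUSG00000042082, chr13:93771630-93943016 in GRCm38), which encodes arylsulfatase B, the enzyme that removes sulfate from dermatan and chondroitin sulfate. Its level was 1938, 1467 and 1270 CPM in lining A to C, 279, 304 and 244 CPM in interstitial D to F and 191, 194 and 174 CPM in BMDM G to I. Every lining library lay above every interstitial library, by 4-fold or more at the closest pair. Its fitted log2 fold change was 2.5 ± 0.17 (SE, n = 3 and 3), a 5.65-fold difference with an edgeR adjusted p of 7.87e-06. Man2b1 (ENSMUSG00000005142, chr8:85083270-85098282) encodes the lysosomal alpha-mannosidase that trims mannose from N-glycans. Its level was 2379, 2297 and 1850 CPM in lining, 1268, 1082 and 909 CPM in interstitial and 608, 636 and 643 CPM in BMDM. The groups did not overlap, and the log2 fold change of lining over interstitial was 1.0 ± 0.15 (edgeR adjusted p = 0.00217), or 2.0-fold. These calls of Arsb and Man2b1 held with each library left out and under each other setting tried.

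Npc2 and Npc1 encode the soluble and the membrane protein that hand cholesterol over and out of the lysosome. Npc2 (ENSMUSG00000021242, chr12:84754562-84773152) was read at 1297, 1196 and 1043 CPM in lining, 783, 627 and 759 in interstitial and 933, 959 and 975 in BMDM. Npc1 (ENSMUSG00000024413) was read at 462, 443 and 380 CPM in lining, 277, 275 and 264 in interstitial and 411, 390 and 396 in BMDM. In both genes every interstitial library lay below every other library. BMDM libraries lay below the lining libraries for Npc2 and among them for Npc1. The log2 fold changes of lining over interstitial were 0.71 ± 0.14 for Npc2 and 0.66 ± 0.12 for Npc1 (edgeR adjusted p = 0.01 and 0.0074). Rmc1, on the opposite strand, overlaps Npc1, and the counting used strand.

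Gusb (ENSMUSG00000025534, chr5:129989011-130003049) encodes beta-glucuronidase, which removes glucuronic acid from glycosaminoglycans. It was read at 696, 627 and 484 CPM in lining, 434, 368 and 359 in interstitial and 1080, 1078 and 1023 in BMDM. The order of the groups was complete, with BMDM highest and interstitial lowest, and the log2 fold change of lining over interstitial was 0.64 ± 0.15 (edgeR adjusted p = 0.0286). Smpd1 (ENSMUSG00000037049, chr7:105554360-105558389), the acid sphingomyelinase, had 101, 84.3 and 86.7 CPM in lining, 63.8, 56.7 and 58.8 in interstitial and 50.8, 52.9 and 52.8 in BMDM. Psap (ENSMUSG00000004207, chr10:60277627-60302597) had 6285, 5917 and 4944 CPM in lining, 4145, 3398 and 3930 in interstitial and 4912, 4812 and 4644 in BMDM. In both, each lining library lay above each interstitial and each BMDM library. Their log2 fold changes over interstitial were 0.60 ± 0.15 for Smpd1 and 0.58 ± 0.14 for Psap (edgeR adjusted p = 0.0333 and 0.0313).

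**Figure D2:**
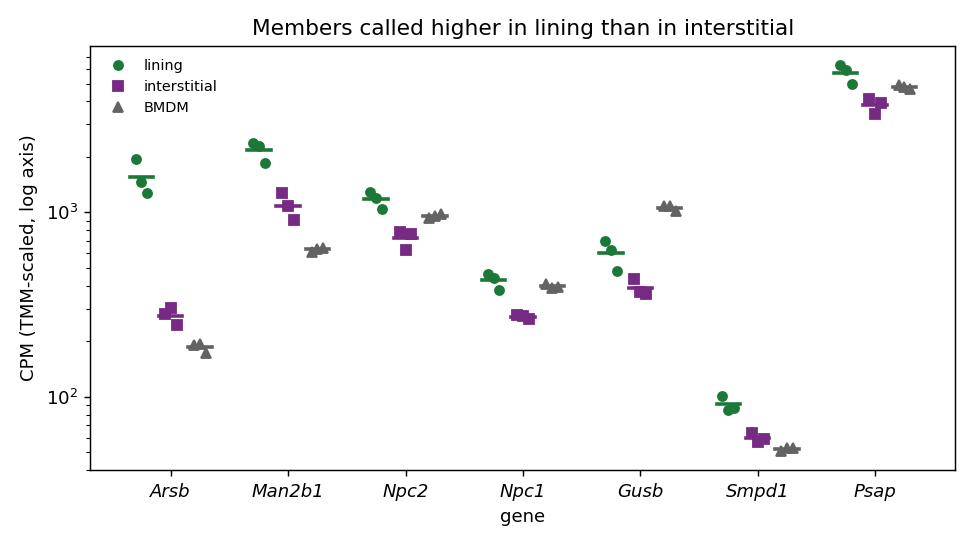
CPM per library (points, log axis) and group means (bars) of the 7 members called higher in lining than in interstitial macrophages, with 3 libraries per group. Lining points lie above interstitial points for each gene, while the BMDM points range from below both (Arsb, Man2b1, Smpd1) to above both (Gusb).

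The 5 smaller calls depended on which libraries entered the fit. With only the lining and interstitial libraries fitted, 2 members were called higher, and the adjusted p was 0.0542 for Npc1, 0.0636 for Npc2, 0.107 for Gusb, 0.161 for Smpd1 and 0.191 for Psap. The count was 3 without lining A and 4 without lining B, interstitial E or any of BMDM G, H and I, while it was 9 without lining C or interstitial D. Npc1 was called with each library left out (adjusted p up to 0.0361), and Npc2 was lost without lining A only (0.0520). Gusb and Smpd1 were each lost without lining A or B, interstitial E or F, or any one BMDM library, with adjusted p up to 0.125 and 0.107, and Psap without lining A or B, interstitial E or any one BMDM library, with adjusted p up to 0.131. Their log2 fold changes lay above zero in each of these fits, the lowest being 0.49 for Psap.

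Among the other 33 members, the log2 fold change of lining over interstitial lay between -0.38 (Gm2a) and 0.62 (Gla). Tpp1, the tripeptidyl peptidase, was just outside the threshold at 0.51 ± 0.14 (edgeR adjusted p = 0.0512), and all lining libraries (417, 396 and 324 CPM) lay above all interstitial libraries (293, 272 and 231). DESeq2 and limma-voom called it higher in lining. Lgmn stood at 0.59 ± 0.21 (edgeR adjusted p = 0.134), with an overlap between lining C at 2598 CPM and interstitial D at 2938 CPM. Hexa, the alpha subunit of beta-hexosaminidase, stood at 0.38 ± 0.16 (edgeR adjusted p = 0.214). Within the V-ATPase, the log2 fold changes ran from -0.32 (Atp6ap2) to 0.37 (Atp6v1f), with a median of 0.15.

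**Figure D3:**
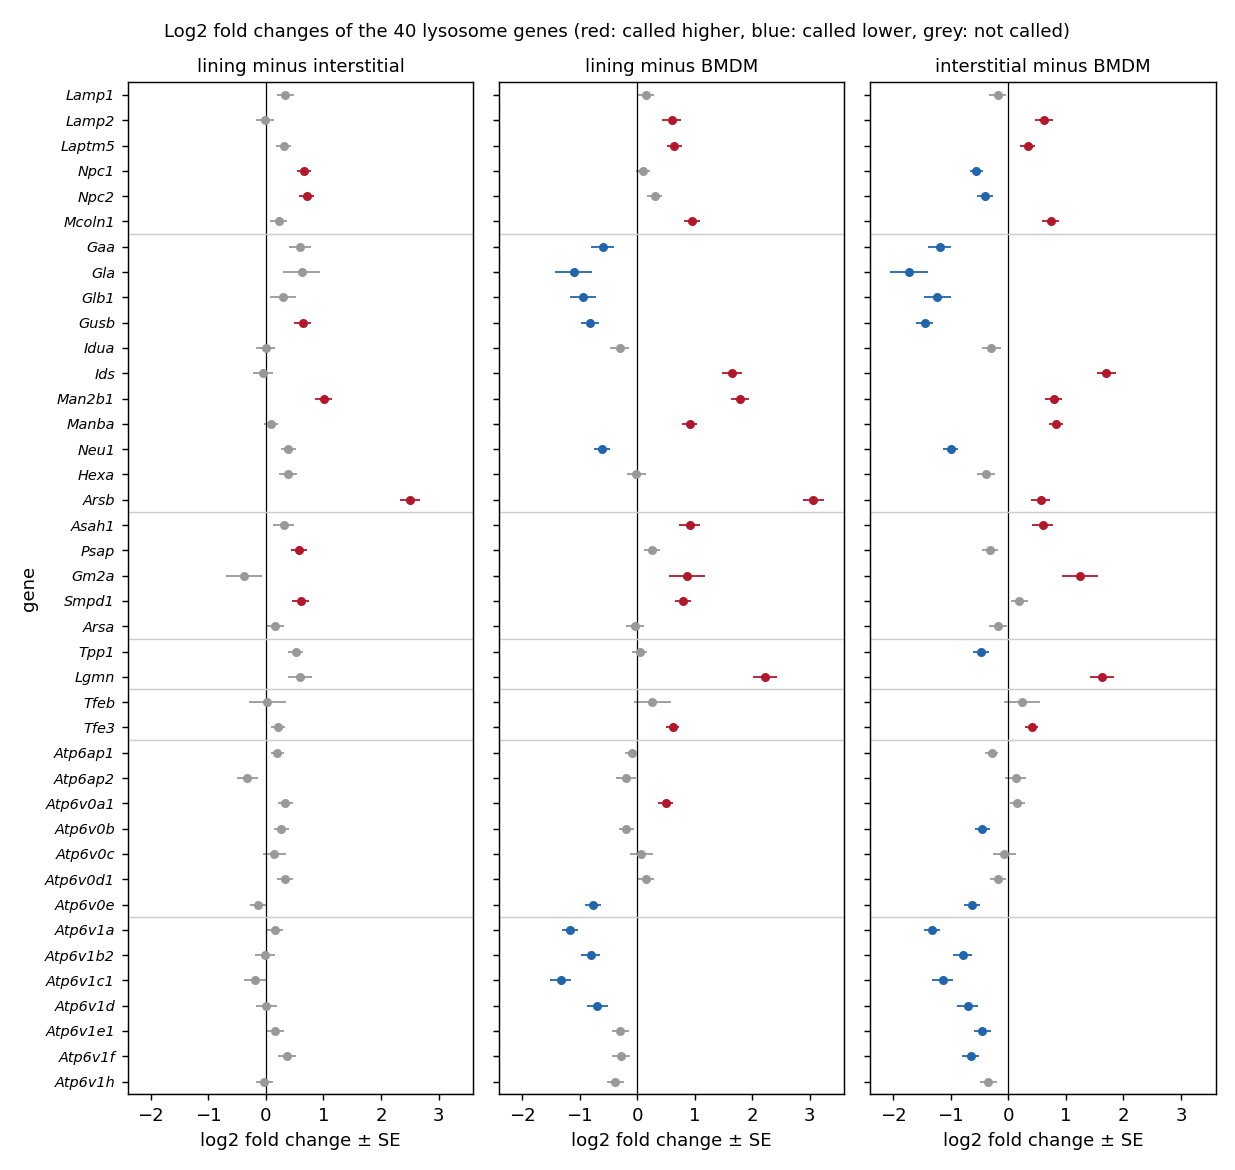
Log2 fold changes with SE of the 40 members in the 3 comparisons (n = 3 libraries per group), with genes called higher in red, called lower in blue and not called in grey. In lining minus interstitial the called genes lie on the right and all V-ATPase subunits are grey, while both comparisons with BMDM have calls on each side.

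Each joint population was then set against BMDM, and both comparisons share the same 3 BMDM libraries. Lining macrophages had 13 members called higher and 10 lower, against 23.1% and 20.5% of all genes tested. All lining libraries lay above all BMDM libraries for 16 members and below for 15, against 29.2% and 33.9% of all genes. Interstitial macrophages had 11 called higher and 16 lower, against 23.4% and 21.3%, with 12 members above and 21 below all BMDM libraries, against 28.4% and 33.8%. The members' median log2 fold change was 0.06 in lining, where its sign changed with a library or the filter, and -0.29 in interstitial cells, against 0.00 and -0.01 for all genes. Without BMDM I the count of members called higher in interstitial cells fell to 7.

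Glycan hydrolases went both ways in both comparisons. In lining 4 of 11 were called higher and 5 lower than in BMDM, and in interstitial cells also 4 and 5. The shares of all genes tested were 23.1% and 20.5% in lining and 23.4% and 21.3% in interstitial cells. Arsb was 3.06 ± 0.18 higher on the log2 scale in lining (8.36-fold, edgeR adjusted p = 7.74e-08) and 0.56 ± 0.16 higher in interstitial cells (adjusted p = 0.0144), and the interstitial call was lost without interstitial E or BMDM I (adjusted p up to 0.0784). Man2b1 was 1.79 ± 0.16 higher in lining (edgeR adjusted p = 2.57e-06) and 0.79 ± 0.15 in interstitial cells (adjusted p = 0.00132).

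Ids (ENSMUSG00000035847, chrX:70343069-70365084), the iduronate sulfatase of heparan and dermatan sulfate breakdown, had 214, 190 and 205 CPM in lining, 189, 271 and 168 in interstitial and 66.5, 65.5 and 61.0 in BMDM. Every joint library lay above every BMDM library, while lining and interstitial libraries overlapped. The log2 fold changes over BMDM were 1.66 ± 0.17 in lining and 1.70 ± 0.17 in interstitial cells (edgeR adjusted p = 1.07e-05 and 7.98e-06). Manba, the beta-mannosidase, had 164, 181 and 201 CPM in lining, 173, 182 and 158 in interstitial and 99.2, 96.1 and 94.6 in BMDM. The joint libraries overlapped one another and all lay above BMDM, with log2 fold changes of 0.91 ± 0.12 and 0.82 ± 0.12 (edgeR adjusted p = 0.000102 and 0.000206).

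The 5 glycan hydrolases lower in lining than in BMDM were Gla, Glb1, Gusb, Neu1 and Gaa, and each was also called lower in interstitial cells. Gla (ENSMUSG00000031266, chrX:134588149-134601125), the alpha-galactosidase that clears globotriaosylceramide, had 58.7, 81.7 and 105.5 CPM in lining, 24.8, 54.1 and 78.4 in interstitial and 178, 172 and 179 in BMDM. The joint libraries varied widely and overlapped, and all lay below BMDM, with log2 fold changes of -1.10 ± 0.32 in lining and -1.72 ± 0.32 in interstitial cells (edgeR adjusted p = 0.0169 and 0.00138). Glb1 (ENSMUSG00000045594, chr9:114401076-114474898), the beta-galactosidase of GM1 ganglioside and keratan sulfate, had 88.3, 97.2 and 82.97 CPM in lining, 101.5, 45.8 and 75.0 in interstitial and 169, 169 and 176 in BMDM. Its joint libraries likewise overlapped and lay below BMDM, with log2 fold changes of -0.93 ± 0.23 and -1.23 ± 0.23 (edgeR adjusted p = 0.0055 and 0.000926). Tmppe overlaps Glb1 on the same strand with 1956 counts in all libraries together against 13622 for Glb1, and reads in the shared part could not be assigned. Gusb, described above, was -0.82 ± 0.15 in lining and -1.46 ± 0.15 in interstitial cells (edgeR adjusted p = 0.000988 and 1.15e-05).

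Neu1, the sialidase, stood at -0.61 ± 0.13 in lining and -1.0 ± 0.13 in interstitial cells. Gaa, the acid alpha-glucosidase that degrades glycogen, stood at -0.60 ± 0.19 and -1.19 ± 0.20, and its lining call was lost without lining C or any one BMDM library (adjusted p up to 0.0669). Idua, the iduronidase, and Hexa were called in neither comparison, at -0.30 and -0.01 in lining and -0.30 and -0.39 in interstitial cells.

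Of the proteases, Lgmn was higher than BMDM in each joint population and Tpp1 was lower in interstitial cells. Lgmn (ENSMUSG00000021190, chr12:102394084-102439813) had 4132, 3401 and 2598 CPM in lining, 2938, 2074 and 1729 in interstitial and 746.5, 725 and 701 in BMDM. The lowest joint library was above the highest BMDM library by more than 2-fold. The log2 fold changes were 2.22 ± 0.22 in lining (4.66-fold, edgeR adjusted p = 6.01e-06) and 1.63 ± 0.21 in interstitial cells (3.10-fold, adjusted p = 6.28e-05). Tpp1 was 0.47 ± 0.14 lower on the log2 scale in interstitial cells, a call lost without BMDM G (adjusted p = 0.0538), and stood at 0.04 in lining.

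Of the 5 sphingolipid genes, 3 were higher and 0 lower in lining than in BMDM, and 2 were higher and 0 lower in interstitial cells. These counts stand against 23.1% and 20.5% of all genes tested in lining, and 23.4% and 21.3% in interstitial cells. Gla and Glb1, which act on globotriaosylceramide and GM1 ganglioside, were counted with the glycan hydrolases and were called lower in both joint groups. The absence of lower calls here therefore depends on how roles were assigned. Gm2a encodes the activator that presents GM2 ganglioside to hexosaminidase. It had 311, 272 and 320 CPM in lining, 270, 246 and 659 in interstitial and 165, 167 and 163 in BMDM. Interstitial F was far above the other joint libraries, and all joint libraries lay above BMDM. Its log2 fold change in interstitial cells was 1.25 ± 0.31 (edgeR adjusted p = 0.00807) and 0.62 without interstitial F. In lining it was 0.87 ± 0.31 (adjusted p = 0.0442), a call lost without any one lining or BMDM library (adjusted p up to 0.133). Asah1, the acid ceramidase, was higher by 0.91 ± 0.18 in lining and by 0.60 ± 0.18 in interstitial cells, with the second call lost without interstitial D or E or any one BMDM library (adjusted p up to 0.0853). Smpd1 was higher by 0.80 ± 0.15 in lining and stood at 0.19 in interstitial cells. Psap stood at 0.25 and -0.32 and Arsa, the arylsulfatase of sulfatide breakdown, at -0.03 and -0.18, none of them called.

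Of the 6 membrane and sterol transport genes, 3 were higher than in BMDM in each joint population and 2 were lower in interstitial cells. Among all genes tested, 23.1% were higher in lining and 23.4% in interstitial cells, and 21.3% were lower in interstitial cells. Mcoln1, the calcium channel of the lysosomal membrane, was higher by 0.96 ± 0.14 in lining and 0.74 ± 0.14 in interstitial cells. Laptm5, a transmembrane protein of blood cell lysosomes, was higher by 0.65 ± 0.13 and 0.34 ± 0.13, and the second call, at an adjusted p of 0.0491, was lost without any one of 7 libraries (all but lining C and interstitial D, adjusted p up to 0.206). Lamp2, a major membrane glycoprotein that also serves chaperone-mediated autophagy, was higher by 0.60 ± 0.16 and 0.61 ± 0.16, with the lining call lost without BMDM I (adjusted p = 0.0545). Lamp1, the other major membrane glycoprotein, stood at 0.15 and -0.19 and was not called. Npc1 and Npc2 were lower in interstitial cells than in BMDM, at -0.55 ± 0.12 and -0.40 ± 0.14, and stood at 0.10 and 0.30 in lining. The Npc2 call was lost without interstitial E or any one BMDM library (adjusted p up to 0.0840).

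V-ATPase calls against BMDM were mostly of V1 subunits. Of the 7 V1 members 0 were higher and 4 lower in lining than in BMDM, with a median log2 fold change of -0.69, and 0 were higher and 6 lower in interstitial cells, with a median of -0.70. Of the 7 V0 and accessory members 1 was higher and 1 lower in lining (median -0.10), and 0 were higher and 2 lower in interstitial cells (median -0.18). All genes tested had 23.1% higher and 20.5% lower in lining, and 23.4% and 21.3% in interstitial cells. The V0 and accessory counts called lower lay near these shares. Summed V1 transcripts were 1161, 1209 and 1085 CPM in lining, 1032, 1148 and 1117 in interstitial and 2074, 2043 and 2117 in BMDM. Summed V0 and accessory transcripts were 1965, 1980 and 1880, 1758, 1807 and 1676, and 1992, 1997 and 1972 CPM in the same order. Of the V-ATPase members' CPM, V1 made up 37.2% ± 0.66 in lining libraries, 38.6% ± 1.5 in interstitial libraries and 51.1% ± 0.61 in BMDM (SD, n = 3), with no overlap between BMDM (50.6% to 51.8%) and either joint group (36.6% to 37.9% and 37.0% to 40%).

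Atp6v1a (ENSMUSG00000052459, chr16:44085402-44139705), the catalytic A subunit, had 327, 351 and 330 CPM in lining, 266, 366 and 273 in interstitial and 746, 733 and 787 in BMDM. All joint libraries lay below all BMDM libraries, and lining and interstitial overlapped. The log2 fold changes were -1.17 ± 0.14 in lining and -1.32 ± 0.14 in interstitial cells (edgeR adjusted p = 4.24e-05 and 1.48e-05). Atp6v1c1 (ENSMUSG00000022295, chr15:38661933-38692446), the C subunit that links V1 to V0, had 126, 118 and 72.5 CPM in lining, 140, 111 and 111 in interstitial and 277.5, 263 and 255 in BMDM. Lining C was lowest, and all joint libraries lay below BMDM, with log2 fold changes of -1.33 ± 0.19 and -1.14 ± 0.19 (edgeR adjusted p = 0.000143 and 0.000414).

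Atp6v1b2, the nucleotide-binding B subunit, stood at -0.81 ± 0.17 in lining and -0.79 ± 0.17 in interstitial cells, and Atp6v1d of the central stalk at -0.69 ± 0.18 and -0.70 ± 0.18, all called. Atp6v1f and Atp6v1e1 were lower in interstitial cells (-0.65 ± 0.15 and -0.45 ± 0.15) and stood at -0.28 and -0.29 in lining. The Atp6v1e1 call was lost without any one BMDM library (adjusted p up to 0.0796) and was also lost with libraries thinned to the smallest total. Atp6v1h stood at -0.38 and -0.35 and missed the threshold (edgeR adjusted p = 0.0535 and 0.0713). In lining it was called lower by DESeq2, by limma-voom, with either other filter and with only the groups compared (adjusted p down to 0.01). On the membrane side, Atp6v0e was lower in each population (-0.77 ± 0.14 and -0.63 ± 0.14), Atp6v0b in interstitial cells (-0.45 ± 0.13), and Atp6v0a1, which directs the pump to its membrane, was higher in lining (0.50 ± 0.13), a call lost without BMDM G or I (adjusted p up to 0.0893). Atp6v0d1, Atp6v0c, which forms the proton-carrying ring, and the accessory subunits Atp6ap1 and Atp6ap2 were called in no comparison, with log2 fold changes against BMDM from -0.29 to 0.15. Atp6ap1 was called lower in interstitial cells than in BMDM by DESeq2 and limma-voom and with either other filter (adjusted p down to 0.0108). The value of Atp6v0c is uncertain where reads also match near-identical pseudogene copies.

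**Figure D4:**
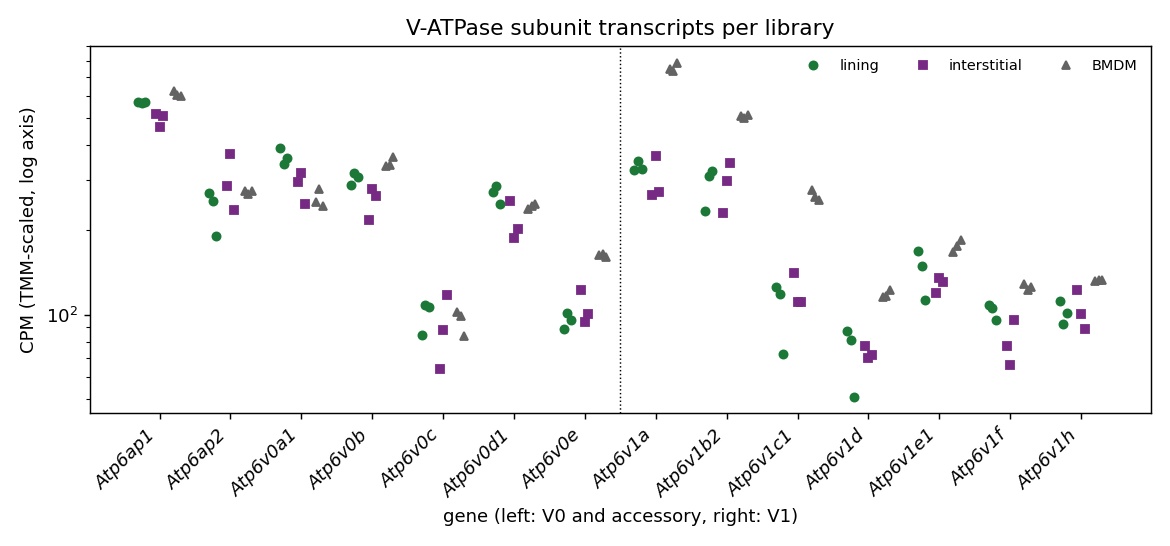
CPM per library (log axis) of the 14 V-ATPase members, with V0 and accessory subunits left of the dotted line and V1 subunits right of it, and 3 libraries per group. BMDM points of Atp6v1a, Atp6v1b2, Atp6v1c1 and Atp6v1d lie above all joint points, while BMDM points of Atp6v0d1, Atp6v0c and Atp6ap2 lie among them.

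Of the transcription factors, Tfeb (ENSMUSG00000023990, chr17:47737030-47792419) had 61.1, 45.3 and 23.3 CPM in lining, 58.5, 42.0 and 27.8 in interstitial and 34.1, 37.7 and 35.8 in BMDM. The joint libraries of each group spanned the BMDM values, and the log2 fold changes were 0.03 ± 0.33 for lining over interstitial and 0.27 ± 0.32 and 0.24 ± 0.32 over BMDM (edgeR adjusted p = 0.982, 0.535 and 0.574). The value followed single libraries: over BMDM in lining it was -0.07 without lining A and 0.54 without lining C, and it was called in none of these fits. Tfe3 (ENSMUSG00000000134, chrX:7762560-7775202) had 243, 222 and 205 CPM in lining, 207, 184 and 188 in interstitial and 149, 141 and 146 in BMDM. All joint libraries lay above BMDM, and the joint groups overlapped by a single library, lining C. Its log2 fold changes were 0.21 ± 0.12 for lining over interstitial (edgeR adjusted p = 0.374), 0.62 ± 0.12 over BMDM in lining (adjusted p = 0.00141) and 0.40 ± 0.12 over BMDM in interstitial cells (adjusted p = 0.0159), the last lost without any one BMDM library (adjusted p up to 0.0927).

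6 members lie on the X chromosome (Lamp2, Gla, Ids, Tfe3, Atp6ap1 and Atp6ap2), and libraries differed in sex transcripts. Xist, which is made from the inactive X of female cells, was read at 96.0, 195 and 161 CPM in lining, 0, 269 and 199 in interstitial and 0.13 or less in BMDM, while the Y-linked Ddx3y was read at 24.2 to 70.3 CPM in every library. Interstitial D had the same pattern as BMDM, with no Xist count and 64.7 CPM of Ddx3y. In this library Ids (189 CPM), Lamp2 (791), Tfe3 (207) and Atp6ap2 (285) lay above every BMDM library. Gla (24.8 CPM) and Atp6ap1 (518) lay below every BMDM library. These values come from a single library, and the part of sex in them was not tested. In the other joint libraries Xist and Ddx3y were both present, as a mix of female and male cells would give, but pooling was not tested. Xist in these libraries cannot be told apart from the group against BMDM. Against BMDM 3 of the 6 were called higher and 1 lower in each joint population, and between lining and interstitial 0 of the 6 were called. The shares of all genes tested were 23.1% and 20.5% in lining and 23.4% and 21.3% in interstitial cells against BMDM. Between lining and interstitial they were 3.74% and 2.05%.

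A wider list of 89 further lysosomal genes was read in the same fit, and 84 of them passed the filter. Of these, 13 were higher and 3 lower in lining than in interstitial cells, against 3.74% and 2.05% of all genes. In lining 37 were higher and 11 lower than in BMDM, against 23.1% and 20.5% of all genes, and in interstitial cells 32 were higher and 21 lower, against 23.4% and 21.3%.

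Atp6v0d2, a V0 subunit known from osteoclasts, was lower in lining (1.45, 6.59 and 10.1 CPM) than in interstitial cells (23.1, 20.1 and 43.8), with a log2 fold change of -2.21 ± 0.50 (edgeR adjusted p = 0.0233), lost without lining B or interstitial F (0.0842 and 0.0657). Mcoln2, a relative of Mcoln1, was lower in lining (5.33, 8.78 and 9.76 CPM) than in interstitial cells (50.5, 37.7 and 25.3), with -2.20 ± 0.30 (edgeR adjusted p = 0.000924). Mcoln3, the third relative, had 5 counts in lining and 1 in interstitial libraries together against 2253 in BMDM, a 635-fold lower level in interstitial cells (95% exact binomial counting interval 114 to 25107). In lining its fitted log2 fold change against BMDM was -6.50 ± 0.75. Against BMDM, Mcoln2 was lower in lining (-2.53 ± 0.30) and stood at -0.33 in interstitial cells, where it was not called.

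The remaining genes taken by size were Atp6v0a4, Acp5, Plbd1 and Sort1. Acp5, the tartrate-resistant acid phosphatase, had 33.9, 80.9 and 64.2 CPM in lining, 25.3, 61.0 and 73.5 in interstitial and 4.63, 3.83 and 5.67 in BMDM, with a log2 fold change of 3.68 ± 0.41 in lining (edgeR adjusted p = 2.2e-05). Osteoclast markers, of which Acp5 is one, also summed higher in joint libraries, as given above. Plbd1, a phospholipase B-like hydrolase, had 25.3, 68.0 and 93.0 CPM in interstitial cells against 2.12 to 2.29 in BMDM (log2 fold change 4.84 ± 0.94, edgeR adjusted p = 0.00336). Atp6v0a4 had 31 counts over the lining libraries and 8 over BMDM, with a log2 fold change of 4.41 ± 1.04 that lost its call without BMDM H (adjusted p = 0.0510). Among the other V-ATPase subunits, Atp6v1g1 was 0.69 ± 0.15 higher in lining than in interstitial cells and 0.95 ± 0.15 lower on the log2 scale in interstitial cells than in BMDM, Tcirg1 was -1.09 ± 0.24 in interstitial cells against BMDM, and Atp6v0a2 and Atp6v1g2 were called in no comparison.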

How the data were processed

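The authors deposited 1 table of read counts per gene, without normalization. Per the file headers, featureCounts 1.6.1 counted reverse-stranded reads over exons of Ensembl genes (GRCm38, release 91), with no option for reads that map or overlap more than once. The submitters' processing notes also name STAR 2.5.4a, cutadapt 1.15, bcl2fastq 2.17.1.14, DESeq2 1.20.0 and R 3.5.0. Per the labels' protocols, 500 ng of RNA went into stranded, poly(A)-selected libraries read as single 101-base reads. Symbols matched 53274 of 53465 identifiers.

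The tests here used edgeR 4.0.16 under R 4.3.3: filterByExpr (minimum count 10, minimum total 15; 12610 genes kept), scaling by trimmed mean of M values (TMM), and a robust quasi-likelihood fit of 1 mean per group to all 9 libraries (6 residual degrees of freedom). Each of 3 contrasts got a 2-sided p per gene, adjusted by Benjamini-Hochberg across the tested genes. Genes with adjusted p under 0.05 are called, and higher and lower in the fitted comparisons refer to called genes. SE was taken as the absolute log2 fold change divided by root F. Exon coordinates and lengths come from the table. The fit was tested on simulated counts. Reads carry no molecular identifiers, so counting intervals cover counting error only. Library letters are unique, so nothing pairs libraries.

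Members and lists were chosen with earlier results of these data known. Values per library are given for members called between lining and interstitial, for Tfeb and Tfe3, for the 4 largest calls each way against BMDM, and for a few others chosen after their values were seen (Tpp1 and genes of the closing section). From the wider list the 3 largest calls per comparison are named, except for an item that is not reported here. Alternatives were DESeq2 size factors, DESeq2 1.42.0, limma-voom (limma 3.58.1), no filter, a mean CPM of at least 1, fits of only the groups compared, leaving out each library, and, chosen after library totals were seen, binomial thinning of each library to about 2194920 counts.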

Additional observations from a re-analysis of the deposited data

How the results depend on the processing

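The number of members called higher in lining than in interstitial macrophages was 2 with only the groups compared in the fit, and 3 to 9 with a library left out, against 7. For interstitial cells over BMDM it was 7 to 11 with a library left out, against 11. The other 4 counts stayed within 1.5 times of their value under each alternative, with 0 members lower in lining than in interstitial cells throughout. Of the 7 calls of lining over interstitial, 2 were kept in every setting (Arsb and Man2b1), as were 10 of 13 higher and 9 of 10 lower calls of lining over BMDM and 7 of 11 higher and 13 of 16 lower calls of interstitial cells over BMDM. No named gene reversed direction as a call. Some members not called gained a call under an alternative: Tpp1 in lining over interstitial cells, Npc2, Atp6v1f and Atp6v1h in lining against BMDM, and Hexa, Psap, Atp6ap1 and Atp6v1h in interstitial cells against BMDM, beside those gained with a library left out. The members' median against BMDM in lining ran from -0.07 to 0.15. Without the filter the median of all genes shifted by -0.13 (lining) and -0.11 (interstitial) against BMDM. The cause of the lost calls was not tested. Depth limits the sorted groups most: 3 counts correspond to 0.269 to 1.37 CPM in their libraries and to 0.133 to 0.154 CPM in BMDM.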

Other observations

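A set of 15 enzymes that break down glycosaminoglycans was picked from both lists after their values were seen. The set is not complete, as Arsg of the wider list was left out. Of the 15, 6 were called higher and 0 lower in lining than in interstitial macrophages, against 3.74% and 2.05% of all genes tested. Having been chosen with these values in view, the set supports nothing by its count. Beside Arsb and Gusb these included Naglu, the N-acetylglucosaminidase of heparan sulfate, and Galns, which desulfates keratan and chondroitin sulfate. Naglu had 199, 196 and 154 CPM in lining against 58.1, 67.9 and 84.7 in interstitial (log2 fold change 1.38 ± 0.16, edgeR adjusted p = 0.000366). Galns had 69.4, 65.5 and 45.4 CPM against 19.9, 31.5 and 35.9 (1.02 ± 0.23, edgeR adjusted p = 0.0226). In both genes the lining libraries lay above the interstitial ones. The enzymes of this set that were not called were Hyal1 (-0.82), Arsk (-0.50), Hyal2 (-0.19), Ids (-0.05), Idua (-0.00), Hgsnat (0.06), Glb1 (0.30), Hexa (0.38) and Sgsh (0.58). Against BMDM the same 15 genes had 8 higher and 2 lower in lining and 7 higher and 4 lower in interstitial cells, where 23.1% and 20.5% and then 23.4% and 21.3% of all genes were called.

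Of the 21 biogenesis, sorting and nutrient sensing genes in the wider list, 3 were higher and 7 lower than in BMDM in each joint population. Of all genes tested, 23.1% were called higher and 20.5% lower in lining, and 23.4% and 21.3% in interstitial cells. The sorting genes among the 21 are given here, chosen after their values were seen. Igf2r, the large mannose 6-phosphate receptor, had 39.3, 84.7 and 60.1 CPM in lining, 13.3, 27 and 59.5 in interstitial and 501, 454 and 489 in BMDM (log2 fold changes against BMDM -2.94 ± 0.46 and -3.82 ± 0.48, edgeR adjusted p = 0.000948 and 0.000243). Sort1, the receptor sortilin, had 33.5, 24.0 and 14.3 CPM in lining, 12.0, 7.01 and 4.46 in interstitial and 131, 130 and 140 in BMDM (-2.50 ± 0.31 and -4.19 ± 0.34, edgeR adjusted p = 4.26e-05 and 1.35e-06). Gnptab, which starts the mannose 6-phosphate tag, stood at -1.38 ± 0.27 and -1.66 ± 0.27, and M6pr, the small receptor, at -0.43 ± 0.14 and -0.45 ± 0.13, all called. Nagpa was lower in interstitial cells (-0.74 ± 0.16), and Gnptg was not called. Lipa, the acid lipase of cholesteryl esters, was also lower in lining (477, 380 and 418 CPM) and interstitial cells (364, 369 and 280) than in BMDM (1604, 1538 and 1499), by -1.87 ± 0.15 and -2.20 ± 0.15 on the log2 scale. Of the relatives of Tfeb, Mitf was higher than in BMDM in lining (1.04 ± 0.29) and interstitial cells (0.98 ± 0.29), and Tfec in interstitial cells (0.93 ± 0.30).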
